A study of Homo sapiens with 4 samples.

Results

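Polyamines are small positively charged molecules that cells make from ornithine, and 8 genes that make, degrade or regulate them were followed here by ribosome profiling. The genes are the antizymes OAZ1 and OAZ2, the antizyme inhibitor AZIN1, the synthesis enzymes ODC1, AMD1, SRM and SMS, and the acetyltransferase SAT1. They were chosen by symbol, as genes known for control through frameshifting or nascent peptides together with their pathway partners. Each is represented by 1 transcript in the deposited values, so the 8 genes are 8 of 16292 transcripts listed in at least 1 library, and all 8 are among the 9612 averaging 5 RPKM or more that were tested. RPKM is a read count scaled to the length of the coding sequence (per kilobase) and to the reads of the library.

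Ornithine decarboxylase, the product of ODC1, makes putrescine, and spermidine synthase (SRM) and spermine synthase (SMS) extend it with aminopropyl groups supplied through S-adenosylmethionine decarboxylase (AMD1). When polyamines are plentiful, more ribosomes shift frame on antizyme mRNA, and the full-length antizyme binds ODC1 protein and delivers it to the proteasome, while AZIN1, an inactive relative of ODC1, binds antizyme in its place. AMD1 mRNA carries a short upstream reading frame whose peptide holds the ribosome when polyamines are plentiful, and SAT1 acetylates spermidine and spermine for export or breakdown.

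Footprints, the mRNA pieces covered by ribosomes, were sequenced from the human embryonic kidney line HEK293 in 4 groups of 1 library each. The groups were wild type without erythromycin, wild type with erythromycin, RPL4 mutant without erythromycin and RPL4 mutant with erythromycin, and values below follow this order. RPL4 belongs to the large subunit of the ribosome and reaches into the tunnel through which the growing peptide leaves, and erythromycin is a macrolide antibiotic known for blocking that tunnel in bacteria. The protocols describe stable lines with GFP, intact RPL4 or RPL4 without a loop, infected with virus that carried either a scrambled hairpin RNA or one directed at RPL4, and they name cycloheximide and lactimidomycin, which hold elongating and initiating ribosomes. Which of these each library had, the dose of erythromycin and whether a line is 1 clone are not given in the labels. All libraries are of footprints and none is of mRNA, so mRNA level and translation were not separated, and in bulk cultures fewer cells with a footprint and fewer footprints per cell cannot be told apart.

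Depth differed between the libraries, which held 2965243, 2555613, 604506 and 993461 reads. The 5 most read transcripts took between 3.40% and 4.88% of reads, with the highest share in the untreated mutant. RPL4 itself had 2515, 2586, 1707 and 1439 RPKM, lower in both mutant libraries (limma, genotype log2 difference −0.72, SE 0.15, adjusted p = 0.018). This call was lost without the variance trend and with genotype as the only term, and the values do not separate endogenous from introduced RPL4. Of 6 markers of HEK293 cells, 5 were tested and present, among them VIM at 637 to 1100 RPKM, while NEFM had 0 to 5 reads per library. Of 7 markers of other cell types, PTPRC and HBA1 were not listed, CD3E, HBB, ALB and PECAM1 had 0 or 1 read per library, and COL1A1 had 3.89 to 6.68 RPKM.

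The frameshift sites of the antizymes are shown because the deposited values count coding sequence on both sides of them, and therefore do not measure frameshifting. Both are taken from the annotated transcripts (GENCODE 29, GRCh38), at chr19:2271422-2271464 on the plus strand for OAZ1 and chr15:64691494-64691536 on the minus strand for OAZ2. Capitals mark the last codon read in the first frame and the stop codon after it. The annotation leaves out the first base of that stop codon from the coding sequence, which lies at position 2271443 for OAZ1 and 64691515 for OAZ2.
OAZ1: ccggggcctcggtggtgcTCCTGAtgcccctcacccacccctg
OAZ2: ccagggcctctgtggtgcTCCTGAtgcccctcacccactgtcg
The windows are identical at 37 of 43 bases, and the longest identical run that holds the skipped base is 27 bases. In OAZ1, 204 coding bases (68 codons) come before the skipped base, which is 29.7% of its 687 coding bases. In OAZ2, 96 coding bases (32 codons) come before it, which is 16.8% of 570. Values per transcript join both stretches, so they cannot show how many ribosomes passed the site.

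The upstream reading frame of AMD1 is shown because it is the sequence through which polyamines are known to act on AMD1 translation. It lies at chr6:110874796-110874816 on the plus strand (GENCODE 29, GRCh38), and capitals mark its start and stop codons.
AMD1: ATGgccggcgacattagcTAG
It has 6 sense codons, begins after 26 bases of a leader of 336 bases and ends 289 bases before the main start codon. Among the 16121 listed transcripts searched, 1 held this reading frame exactly, the one of AMD1. After the AMD1 stop codon, 127 sense codons follow before the next stop codon in the same frame. Reads in the leader or beyond the stop codon are not part of the coding lengths to which the deposited values were matched. An ATG on the mRNA strand stood in the leader of 6 of the 8 genes (6 in AZIN1, 2 each in OAZ2, ODC1 and SAT1, and 1 each in AMD1 and SMS), against 53.7% of 15457 leaders, and OAZ1 and SRM had 0. Such a match describes these letters and is not evidence of use.

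**Figure D1:**
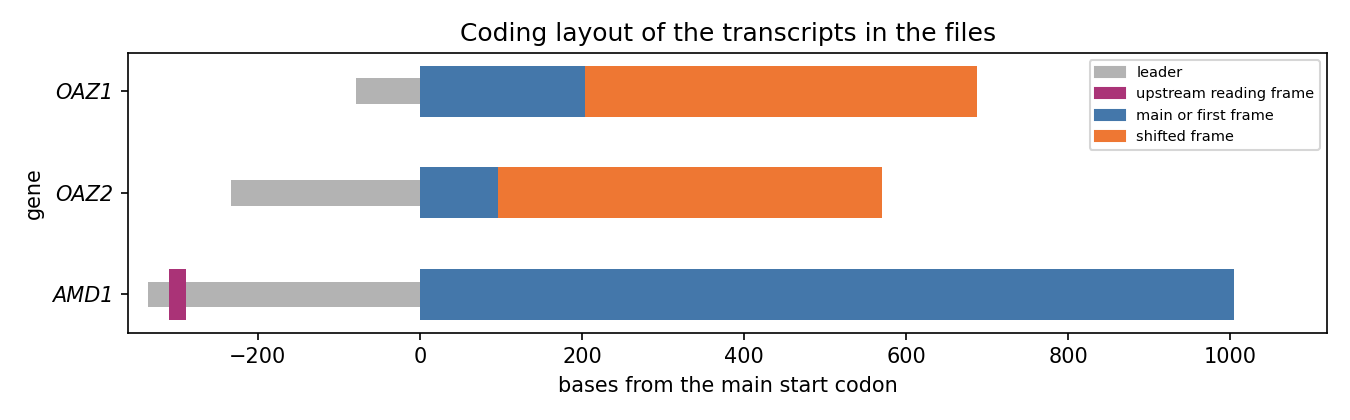
Layout of the OAZ1, OAZ2 and AMD1 transcripts in bases from the main start codon, with the leader in grey, the first or main frame in blue, the shifted frame in orange and the upstream reading frame in purple. The shifted frame holds most of both antizyme coding sequences, since 29.7% of OAZ1 and 16.8% of OAZ2 come before the skipped base.

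The 8 genes together took 0.142% (95% Wilson interval 0.137% to 0.146%), 0.146% (0.141% to 0.151%), 0.127% (0.118% to 0.136%) and 0.142% (0.135% to 0.150%) of all reads. The lowest share was in the untreated mutant, the shallowest library, whose interval overlapped only that of the treated mutant. The other 3 overlapped within their intervals. Intervals here and below cover counting error only. The reads carry no stated molecular identifiers, so repeated copies of a molecule could not be told apart from separate molecules.

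OAZ1 (ENSG00000104904.12, chr19:2269509-2273490, plus strand) had 299, 331, 299 and 384 RPKM, from 610, 582, 124 and 262 reads. The treated libraries were the higher ones in both genotypes, and the treated mutant was the highest. The log2 difference of treated over untreated cells was 0.16 [−0.00, 0.33] for wild type cells and 0.31 [−0.00, 0.63] for mutant cells, where brackets give 95% counting intervals. Both intervals reach just below 0, and for the mutant the interval lies above 0 under 5 of the 8 other settings. The mutant differed from wild type by 0.02 [−0.27, 0.30] without and 0.15 [−0.07, 0.36] with the drug, and the second value was 0.29 under common-sum scaling and 0.26 with the centre taken from genes of at least 20 RPKM, each with an interval above 0. An annotated gene on the same strand, AC005258.1, overlaps the OAZ1 coding sequence, so reads of the pair may not have been separable. For 7 of the 8 genes, the coding sequence of the transcript used overlaps no annotated exon of another gene.

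OAZ2 (ENSG00000180304.14, chr15:64687573-64703281, minus strand), the second widely expressed antizyme, had 115, 127, 98.7 and 122 RPKM, from 195, 185, 34 and 69 reads. Its highest value was in treated wild type and its lowest in the untreated mutant, and the 4 intervals overlapped. Treated over untreated cells gave 0.15 [−0.14, 0.45] with the wild type genotype and 0.25 [−0.36, 0.89] with the mutant one. Between genotypes, mutant minus wild type, the values were −0.20 [−0.77, 0.33] without and −0.12 [−0.54, 0.28] with erythromycin. The erythromycin responses of OAZ2 were near those of OAZ1, with wider intervals. On the settings of the report these intervals cover 0 for both antizymes.

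AZIN1 (ENSG00000155096.13, chr8:102826357-102893864, minus strand) was the least covered of the 8 genes and had the widest range. Its values were 20.8, 35.1, 29.5 and 34.4 RPKM, from 83, 121, 24 and 46 reads. Untreated wild type was the low library, and the other 3 lay close together. The erythromycin response was 0.75 [0.36, 1.19] in wild type, above 96.5% of tested genes, and 0.16 [−0.57, 0.95] in the mutant. The difference between these responses was −0.58 [−1.42, 0.21], so its counting interval covers 0. The genotype difference (mutant minus wild type) was 0.51 [−0.19, 1.20] without the drug and −0.09 [−0.62, 0.41] with it.

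ODC1 (ENSG00000115758.12, chr2:10439968-10448504, minus strand), the target of antizyme and the entry enzyme of the pathway, had 272, 255, 218 and 200.4 RPKM, from 1118, 905, 183 and 276 reads. Both mutant libraries lay below both wild type libraries. Mutant over wild type came to −0.29 [−0.52, −0.06] without erythromycin and −0.41 [−0.61, −0.22] with it. The treated pair lay below 0 in each of the 8 other settings, and the untreated pair in each but scaling to a common RPKM sum. The treated value was −0.30 with the centre from genes of at least 20 RPKM and −0.27 under common-sum scaling. Its erythromycin response was −0.08 [−0.20, 0.05] for wild type cells and −0.18 [−0.45, 0.10] for mutant cells.

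AMD1 (ENSG00000123505.15, chr6:110874770-110895713, plus strand) had 61.7, 73.2, 60.9 and 75.1 RPKM, from 184, 188, 37 and 75 reads. The untreated libraries of the genotypes were close to each other, as were the treated ones, with the treated libraries higher. The response was 0.26 [−0.04, 0.56] for wild type cells and 0.25 [−0.34, 0.86] for mutant cells. Genotype differences were 0.01 [−0.55, 0.52] and −0.03 [−0.43, 0.37], values whose sign depended on the scaling. The annotation names 4 processed pseudogenes of AMD1 and 2 of SRM, and how reads that map to several places were counted is not given in the sources used here.

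SRM (ENSG00000116649.9, chr1:11054584-11060024, minus strand) had 319, 317, 255 and 313 RPKM, from 859, 736, 140 and 283 reads. The untreated mutant stood below the other 3 libraries, which were nearly level. Its genotype difference was −0.30 [−0.57, −0.04] without and −0.08 [−0.28, 0.12] with the drug, while the erythromycin response was 0.01 [−0.14, 0.15] for wild type cells and 0.24 [−0.05, 0.55] for mutant cells. Without centring, the interval of the mutant response lies above 0.

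SMS (ENSG00000102172.15, chrX:21940573-21994835, plus strand) had 242, 211, 194 and 199 RPKM, from 791, 595, 129 and 218 reads. Untreated wild type was the high library. With erythromycin the log2 difference was −0.18 [−0.34, −0.03] for wild type cells, and the mutant response was −0.01 [−0.33, 0.31]. The genotypes differed by −0.30 [−0.58, −0.03] without and −0.15 [−0.38, 0.08] with the drug. For SRM and SMS, the interval of the untreated pair covers 0 under common-sum scaling and when the centre is taken from genes of at least 20 RPKM.

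SAT1 (ENSG00000130066.16, chrX:23783173-23786226, plus strand), on the breakdown side of the pathway, had 235, 318, 308 and 355 RPKM, from 360, 419, 96 and 182 reads. Untreated wild type was again the low library, and the treated mutant the high one. The erythromycin response was 0.45 [0.24, 0.66] in wild type, above 89.4% of tested genes, and 0.15 [−0.21, 0.53] for mutant cells. Mutant over wild type gave 0.41 [0.07, 0.74] without and 0.10 [−0.16, 0.35] with erythromycin. The difference between the erythromycin responses was −0.29 [−0.71, 0.12].

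**Figure D2:**
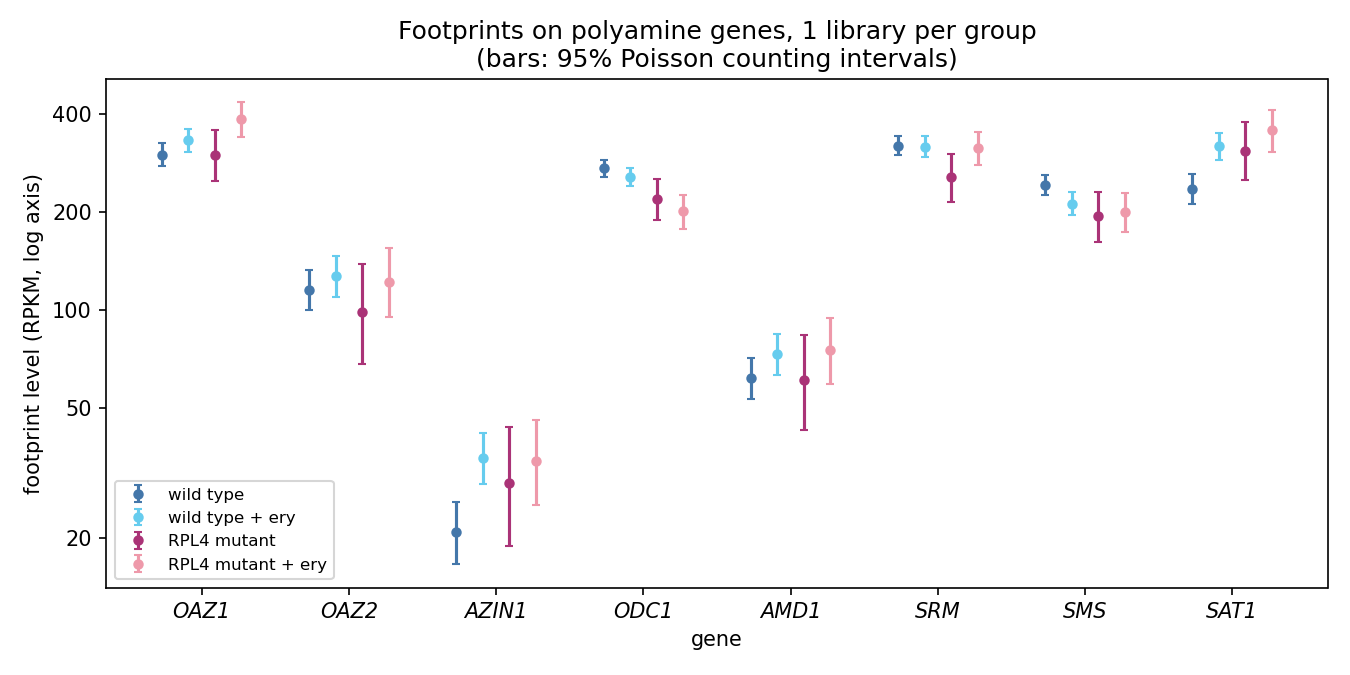
Footprint level of each gene in RPKM (log axis), with 1 point per library and bars for the 95% Poisson counting interval. AZIN1 and SAT1 are lowest in untreated wild type, at 20.8 and 235 RPKM, and ODC1 is lower in both mutant libraries (218 and 200.4) than in both wild type libraries (272 and 255).

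In the response of wild type cells to erythromycin, the counting interval lay above 0 for 2 of the 8 genes (AZIN1 and SAT1) and below 0 for 1 (SMS). Over all genes with recovered reads the same happened for 28.1% (14.2% above and 13.9% below), so 3 of 8 is close to this background. The background here and below is not matched to the read numbers of the 8 genes, on which such calls depend. In the response of mutant cells 0 of the 8 intervals left out 0, against 14.9% of genes. Of the 8 genes, 6 lay above 0 in each genotype and ODC1 and SMS below, although SRM in wild type and SMS in the mutant are so near 0 that other scalings turn their sign. The median of the 8 was 0.16 for wild type cells and 0.20 for mutant cells, where the median over all tested genes is set to 0.

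In untreated cells, mutant over wild type, 1 of 8 lay above 0 (SAT1) and 3 below (ODC1, SRM and SMS), against 18.8% of all genes (9.5% above and 9.31% below). AMD1, the other synthesis enzyme, was at 0.01 [−0.55, 0.52]. Under common-sum scaling SAT1 alone was left, and with the centre from genes of at least 20 RPKM SAT1 and ODC1. The uncentred median was −0.08 over genes of at least 20 RPKM and −0.03 over all tested genes, so genes at higher levels lay lower in this pair. In the treated pair these medians were −0.05 and 0.06. In treated cells, 1 of 8 (ODC1, below 0) left out 0, against 33% of genes in either direction and 16.9% below. The median of the 8 genes was −0.10 without the drug and −0.09 with it, and the latter became 0.06 under common-sum scaling and 0.03 with the centre from genes of at least 20 RPKM. In the comparison of responses between genotypes 0 of 8 left out 0, against 19.6%.

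In all 5 comparisons 0 of the 8 genes reached 2-fold. Over all tested genes this was met by 3.27% for erythromycin in wild type, 9.61% for erythromycin in the mutant, 8.6% for the genotypes without drug, 9.28% for the genotypes with drug and 13.9% for the difference of responses. All 8 genes average 20 RPKM or more, and a 2-fold difference is rarer among such genes. Of 5570 genes at this level, with the centre taken from them, 107, 266, 254, 310 and 439 reached it, in the same order. The comparisons of a genotype and of a treatment share libraries, so they are not independent views of a gene.

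**Figure D3:**
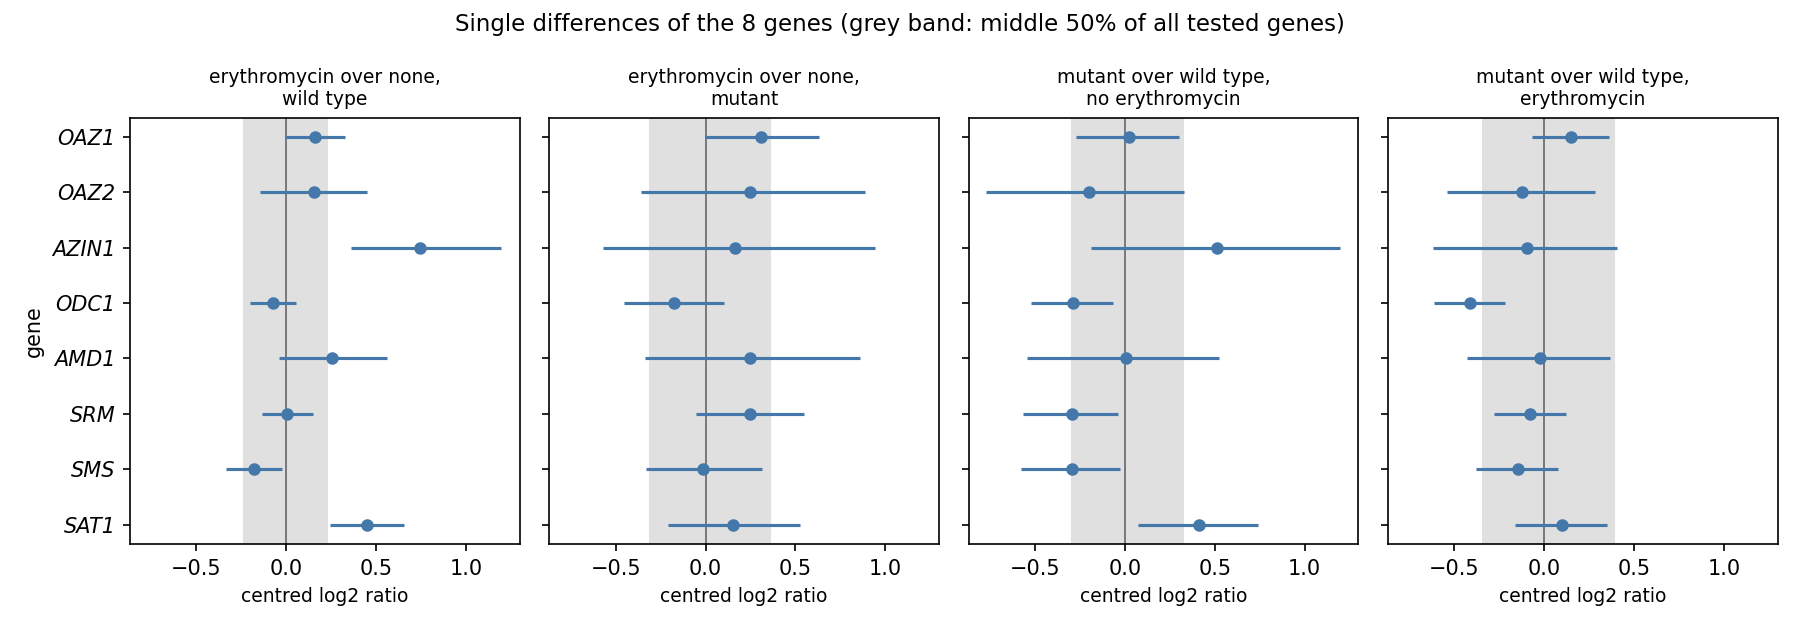
Centred log2 differences of the 8 genes for erythromycin in each genotype and for the mutant in each treatment, with lines for 95% counting intervals and a grey band for the interquartile range of all tested genes. In wild type cells the intervals of AZIN1 (0.75) and SAT1 (0.45) lie above 0, and in mutant cells the intervals of all 8 genes cover 0.

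Across both arms, limma with genotype and treatment as terms passed 0 of the 8 genes for erythromycin, against 24 of 9612 (0.25%), and 0 of 8 for genotype, against 187 (1.95%). At an unadjusted p under 0.05 the number of the 8 was also 0 for both terms, against 594 and 1193 genes. The smallest adjusted p among the 8 was 0.937 for erythromycin (AZIN1, log2 difference 0.46, SE 0.286) and 0.536 for genotype (ODC1, −0.35, SE 0.212). This model has 1 residual degree of freedom and is exploratory, and no other tool was run. That degree of freedom holds unequal erythromycin responses of wild type and mutant cells, so these p were not judged against replicates. The counting intervals above do not cover spread between libraries.

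Ratios between genes of the same library do not depend on how libraries are scaled, and they are given with 95% counting intervals. Values of OAZ1 and OAZ2 join both sides of the frameshift site, so their ratios compare footprints and not amounts of full-length antizyme. The ratio of OAZ1 to ODC1, antizyme to its target, was 1.10 [1.00, 1.22], 1.30 [1.17, 1.44], 1.37 [1.08, 1.73] and 1.92 [1.61, 2.28] in RPKM. It was lowest in untreated wild type and highest in the treated mutant, whose interval overlaps only that of the untreated mutant. The log2 change of this ratio with erythromycin was 0.24 [0.03, 0.44] in wild type and 0.49 [0.08, 0.90] in the mutant, and the change from wild type to mutant was 0.31 [−0.05, 0.67] without and 0.56 [0.28, 0.85] with the drug. For OAZ2 the ratio to ODC1 was 0.424, 0.497, 0.452 and 0.608, and each of its 4 changes lay above 0 with an interval covering 0. OAZ2 to OAZ1 was 0.385, 0.383, 0.331 and 0.317, lower in both mutant libraries. Its change from wild type to mutant was −0.22 [−0.82, 0.37] without and −0.27 [−0.72, 0.18] with the drug, and the intervals of all 4 changes cover 0.

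The ratio of SAT1 to ODC1, breakdown to synthesis, was 0.865 [0.766, 0.975], 1.24 [1.10, 1.40], 1.41 [1.09, 1.81] and 1.77 [1.46, 2.14]. Untreated wild type was the only library with less SAT1 than ODC1 per kilobase, and its interval lies apart from the other 3. This ratio was chosen after the values were seen, so it is a description only. Its log2 change was 0.52 [0.28, 0.76] with erythromycin in wild type, 0.70 [0.31, 1.10] for the mutant without drug and 0.51 [0.19, 0.83] with drug, and 0.33 [−0.12, 0.78] with erythromycin in the mutant. SAT1 to SRM was 0.738, 1.00, 1.21 and 1.13, with changes of 0.44 [0.19, 0.69] for erythromycin in wild type and 0.71 [0.30, 1.13] for the mutant without drug. The change was −0.09 [−0.55, 0.37] for erythromycin in the mutant and 0.18 [−0.14, 0.50] for the mutant with drug.

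AZIN1 to OAZ1, inhibitor to antizyme, was 0.0694, 0.106, 0.0987 and 0.0895, so antizyme footprints outnumbered those of its inhibitor per kilobase in every library. The change with erythromycin was 0.61 [0.18, 1.05] in wild type and −0.14 [−0.92, 0.64] in the mutant. AMD1 to ODC1, the decarboxylases, was 0.227, 0.287, 0.279 and 0.375, with a change of 0.34 [0.02, 0.66] for erythromycin in wild type. SRM to SMS, the aminopropyl transferases, was 1.32, 1.50, 1.31 and 1.57, and its 4 changes had intervals covering 0. Of 32 changes in these 8 ratios, 10 intervals left out 0, namely 5 for erythromycin in wild type, 1 for erythromycin in the mutant and 2 each for genotype without and with the drug. SAT1 to ODC1, one of the ratios chosen after the values were seen, gave 3 of the 10, and the 6 ratios chosen earlier gave 7 of 24. The genes in these 6 ratios were themselves chosen with earlier results of these data known. The ratios share genes and libraries, were not adjusted for their number and were not set against ratios of other genes.

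**Figure D4:**
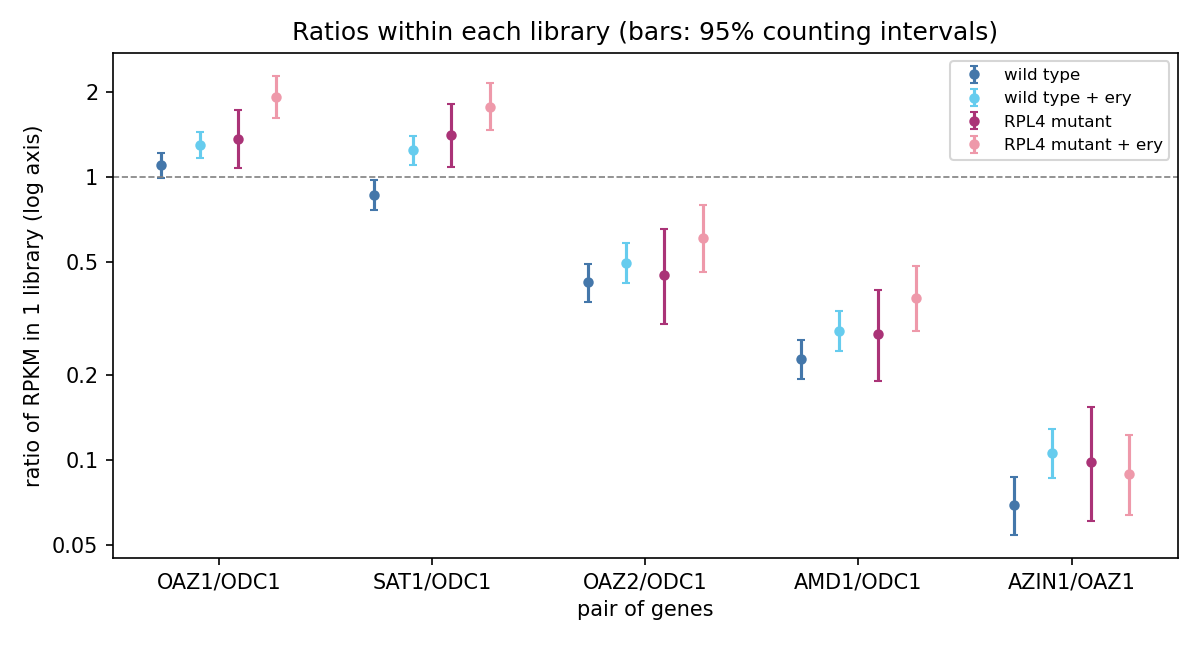
RPKM ratios between pairs of genes within each library (log axis), with bars for 95% counting intervals. OAZ1 to ODC1 goes from 1.10 in untreated wild type to 1.92 in the treated mutant, and SAT1 to ODC1 from 0.865 to 1.77. The ratio of SAT1 to ODC1 was chosen after the values were seen.

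Ordered by RPKM within a library, AZIN1, AMD1 and OAZ2 were the lowest 3 in all 4 libraries, in that order. SRM was first in untreated wild type (319), followed by OAZ1 (299), and these neighbours did not differ beyond their counting intervals. OAZ1 was first in both treated libraries (331 and 384) and SAT1 in the untreated mutant (308), and in each the second gene lay within the interval. AZIN1 lay below AMD1 beyond the interval in every library, and OAZ2 lay above AMD1 beyond it in all but the untreated mutant, where they had 34 and 37 reads. Each of OAZ1, ODC1, SRM, SMS and SAT1 was at or above the level of 90.3% of tested genes in every library, while AZIN1 was above 44.4% to 59.5%.

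The gene with the widest range over the 4 libraries was AZIN1, with 0.75 on the centred log2 scale. Among 5570 genes averaging 20 RPKM or more, those nearest to its 4 values after removing each gene's mean were TMX3 (distance 0.118), ZNF367 (0.119) and NMU (0.123). TMX3, a thioredoxin-related protein of the endoplasmic reticulum, had 18.8, 28.4, 25.4 and 28.8 RPKM. ZNF367, a zinc finger protein, had 17.9, 30.8, 26.7 and 27.7 RPKM. NMU, the neuropeptide neuromedin U, had 30.8, 47.0, 44.1 and 49.8 RPKM. Likeness over 4 libraries is a description.

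The surrounding pathways were read through 5 lists, and 0 of their genes passed limma for either term. Of 12 genes of polyamine breakdown, transport and minor paralogs, 11 were listed and 6 tested, and in wild type cells erythromycin put 2 of these above 0 and 1 below by counting interval (28.1% of all genes in either direction). In mutant cells erythromycin put 0 of the 6 off 0 (14.9%), and the mutant had 1 below 0 without drug (18.8%) and 1 on each side with drug (33%). SLC3A2, a heavy chain of amino acid transporters, had 72.2, 122, 75.9 and 79.1 RPKM, so treated wild type stood apart. Its response was 0.76 [0.59, 0.96] for wild type cells and 0.01 [−0.38, 0.41] for mutant cells, a difference of −0.76 [−1.19, −0.34]. SAT2, a relative of SAT1, had 88.1, 122, 80.6 and 118 RPKM, higher with drug in both genotypes (0.48 [0.15, 0.83] and 0.49 [−0.20, 1.23]). NQO1, a quinone reductase that also shields ODC1 protein from the proteasome, had 58.9, 39.4, 26.1 and 36.6 RPKM, with −1.12 [−2.09, −0.33] for the mutant without drug from 13 mutant reads. ATP13A3, a polyamine transporter, had 0.70 [0.37, 1.09] for the mutant with drug, and SLC18B1, a vesicular polyamine transporter, had intervals covering 0 in all 4 comparisons.

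Of 11 genes of the methionine cycle, which supplies AMD1, and of methylthioadenosine salvage, 10 were tested. Erythromycin put 1 above 0 and 2 below in wild type (28.1% of all genes) and 2 on each side in the mutant (14.9%). Mutant over wild type put 0 above and 3 below 0 without drug, and 0 above and 4 below with it, against 18.8% and 33% of all genes. AHCY, which hydrolyses S-adenosylhomocysteine, had 388, 363, 279 and 273 RPKM, with both mutant libraries low (−0.45 [−0.66, −0.25] and −0.47 [−0.65, −0.30]). MAT2A, which makes S-adenosylmethionine, had 326, 231, 212 and 270.3 RPKM, lower with drug in wild type and higher with drug in the mutant. MTAP, which cleaves methylthioadenosine, had 21.5, 27.3, 31.3 and 13.0 RPKM, with −1.26 [−2.46, −0.22] for erythromycin in the mutant from 13 treated reads and −1.07 [−2.11, −0.26] for the mutant with drug. ENOPH1, another salvage enzyme, had −0.80 [−1.62, −0.02] for erythromycin in the mutant, an interval that covers 0 under 3 of the 8 other settings. MTRR, which reactivates methionine synthase, had intervals covering 0 in all 4 comparisons.

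Of 12 genes of arginine, ornithine and proline metabolism 8 were tested. Erythromycin put 1 above 0 and 3 below in wild type (28.1% of all genes) and 0 of the 8 off 0 in the mutant (14.9%). The mutant had 1 on each side without drug (18.8%) and 3 above and 2 below with drug (33%). OAT, which converts ornithine away from the polyamine branch, had 256, 251, 190.5 and 168 RPKM, with both mutant libraries low (−0.40 [−0.66, −0.15] and −0.64 [−0.86, −0.43]). PYCR1, a proline synthesis enzyme, had 60.3, 42.1, 73.1 and 75.4 RPKM, with 0.76 [0.34, 1.21] for the mutant with drug. ASL, argininosuccinate lyase, had 8.94, 12.9, 21.3 and 11.5 RPKM, with 1.19 [0.38, 2.13] for the mutant without drug from 18 mutant reads.

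Hypusine is an amino acid made from spermidine on the translation factor EIF5A, and all 4 genes of that list were tested. For the mutant without drug 2 of the 4 lay below 0 (18.8% of all genes in either direction), and with drug 1 (33%). Erythromycin put 1 above 0 in wild type (28.1%) and 0 off 0 in the mutant (14.9%). EIF5A had 1148, 1282, 926 and 1028 RPKM, lower in both mutant libraries (−0.28 [−0.46, −0.11] and −0.38 [−0.52, −0.24]) and at 0.17 [0.08, 0.27] for erythromycin in wild type. DHPS, the first enzyme of the modification, had 68.8, 69.3, 56.5 and 69.6 RPKM with intervals covering 0 in all 4 comparisons. DOHH, the enzyme that completes it, had 41.2, 47.8, 16.4 and 33.2 RPKM, with −1.25 [−2.47, −0.33] for the mutant without drug from 9 mutant reads.

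Of 13 other human genes known for frameshifting, readthrough or arrest, 9 were tested, and erythromycin in wild type put 2 above 0 and 3 below (28.1% of all genes), as it did in the mutant (14.9%). The mutant had 1 above 0 and 3 below without drug (18.8%) and 2 above and 3 below with drug (33%). PEG10, which uses frameshifting to make a longer protein, had 183, 157, 134 and 98.0 RPKM, and its counting intervals lay below 0 in all 4 comparisons, from −0.21 [−0.34, −0.09] for erythromycin in wild type to −0.73 [−0.95, −0.53] for the mutant with drug. RTL1, a related gene, had 1.49, 1.82, 3.65 and 15.8 RPKM from 18, 19, 9 and 64 reads, with the highest value in the treated mutant. It reached the mean of 5 RPKM required for testing through that library alone, so its count among the genes above 0 there follows from the filter and is no support for a difference. VEGFA, a growth factor with reported readthrough, had 13.3, 19.3, 16.0 and 36.6 RPKM, with 1.09 [0.19, 2.19] for erythromycin in the mutant. LDHB, a dehydrogenase with a readthrough extension, had 1450.3, 1742, 1154 and 1044 RPKM, with the highest value in treated wild type. MDH1, another such dehydrogenase, had 380.2, 371, 309 and 254 RPKM, with both mutant libraries below both wild type libraries. A difference between PEG10 and the antizymes was not tested.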

How the data were processed

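Ribosome footprints were analysed from 4 libraries of HEK293 cells, 1 in each group. The authors deposited RPKM per transcript. Cutadapt, STAR and GRCh38 are named per the submitters' processing notes, while the read counter, annotation and tool versions were not given in the sources used here. A transcript missing from a library was read as 0. Of 16292 transcripts, 16172 matched GENCODE 29. RPKM times coding length (stop codon included) gave whole reads for 99.2% of matched values in each library, within 0.001 reads, and the recovered reads were 97.5% to 98.6% of the library totals. These reads served for intervals only, and no count test was run.

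Differences are of log2(RPKM + 1), which understates changes of low genes, centred on the median of the 9612 genes averaging 5 RPKM or more. Their 95% intervals are Clopper-Pearson intervals of the read ratio without the added 1, centred alike. Levels have Poisson intervals, shares Wilson intervals, ratios Clopper-Pearson intervals, and changes of ratios and differences of responses normal intervals on the log scale, and all cover counting error only. With 1 library per group no p is given for a single difference. limma 3.58.1 (R 4.3.3) fitted genotype and treatment to log2 values, each library centred on the median of its differences from the row means, with a variance trend and Benjamini-Hochberg adjustment over 9612 genes at 0.05. It was also run on simulated reads with counting noise and genotype changes only. That run does not show how the p of limma behave in these data. With 1 library per group, the only residual left for a gene is how far its erythromycin response changes with genotype. The error behind each p comes from such changes, shared over genes, and not from replicates. A gene that responds in 1 genotype only therefore adds to its own error. Nothing in the labels says that libraries came from separate cultures, so technical spread is not separated either.

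The members, lists and rules were chosen with earlier results of these data known. Of each list, the named genes are the 2 with the highest mean RPKM, the highest and lowest by mean difference, those past 2-fold with at least 20 reads in both libraries summed, and those past limma. The ratios SAT1 to ODC1 and OAZ2 to OAZ1 were added after values were seen. Alternatives were pseudocounts of 0.1 and 5 RPKM, minimum means of 1, 20 and none, no centring, a trimmed mean, a common RPKM sum and, for limma, no variance trend and single terms.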

Additional observations from a re-analysis of the deposited data

Results flagged for a closer look

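RPL4, MAT2A and LDHB had erythromycin responses of opposite sign in the genotypes, each with a counting interval that leaves out 0 on the settings of the report. For RPL4 the centred log2 difference of treated over untreated cells was 0.0553 [0.01, 0.10] in wild type and −0.299 [−0.40, −0.20] for mutant cells. The wild type interval of RPL4 covers 0 without centring, with no filter and at a minimum of 20 RPKM. MAT2A, which makes the S-adenosylmethionine that AMD1 uses, had −0.48 [−0.62, −0.35] in wild type and 0.30 [0.02, 0.59] for mutant cells. LDHB, a lactate dehydrogenase with a readthrough extension, had 0.28 [0.22, 0.34] in wild type and −0.20 [−0.34, −0.06] for mutant cells. With 1 library per group, the difference between genotypes was not tested against replicates for any of these genes. Their part in the values of the 8 polyamine genes was not tested.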

How the results depend on the processing

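The 320 recomputed differences of the 8 genes moved by less than their counting intervals, and AZIN1, SAT1 and SMS for erythromycin in wild type, SAT1 for the mutant without drug and ODC1 for the mutant with drug were called under all 8 other settings. For erythromycin in the mutant the count of intervals off 0 went from 0 to 1 (OAZ1) with a pseudocount of 5, common-sum scaling, a minimum of 20 RPKM or no filter, and to 2 (OAZ1 and SRM) without centring. For the mutant without drug it went from 4 to 1 (SAT1) under common-sum scaling and 2 (SAT1 and ODC1) at 20 RPKM, and with drug from 1 to 2 (ODC1 and OAZ1) under both. Common-sum scaling turned the median of the 8 genes for the mutant with drug from −0.086 to 0.058, as 20 RPKM did (0.0263), and lowered the centre that is subtracted by 0.145, which raises every difference. It raised the share of interval calls above 0 from 50.5% to 67.8% (mutant without drug) and from 48.9% to 67.3% (with drug), and of 2-fold calls with drug from 75.7% to 86.4%. No centring raised the share of interval calls from 48.4% to 58.9% (erythromycin in the mutant) and from 46.9% to 58.9% (responses). The limma genotype value of AMD1 (−0.0052) became 0.0765 at 20 RPKM and 0.0087 without centring.

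With a pseudocount of 5 RPKM, and minimum means of 1, 20 and none, the number of tested genes at 2-fold was 114, 697, 107 and 925 for erythromycin in wild type (314 before), 477, 1981, 266 and 2922 in the mutant (924), 409, 1860, 254 and 2458 for the genotypes without drug (827), 457, 1671, 310 and 2218 with drug (892), and 758, 2549, 439 and 3697 for the responses (1338). limma passed 67 genes for erythromycin at a minimum of 1 RPKM, 42 at 20, 99 with no filter, 68 with a pseudocount of 0.1 and 0 both without the trend and with a single term (535 and 246 at an unadjusted p under 0.05), against 24. For genotype it passed 290 at 1 RPKM, 341 with no filter, 284 with a pseudocount of 0.1, 91 without the trend and 54 with a single term, against 187. The 8 genes passed in 0 of these fits. Ratios of reads not divided by coding length differ from those of RPKM by construction, and 28 of 32 moved beyond their counting interval. The cause of the other shifts was not tested. No paired analysis was possible because each group has 1 library and the labels carry no replicate numbers, and leaving out a replicate was not possible for the same reason. The untreated mutant, with 24 to 183 reads on each of the 8 genes, sets the precision of its comparisons.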
